A study of Mus musculus with 2 samples.

Results

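The members described here are 10 genes of the mammalian SWI/SNF (BAF) chromatin remodelling complex whose subunits are exchanged as stem cells become neural progenitors and then neurons. They were taken as all non-control probes whose gene name on the array is Smarca4, Smarca2, Smarcc1, Smarcc2, Actl6a, Actl6b, Dpf1, Dpf2, Dpf3 or Phf10. The rule found 23 probes for the 10 genes, among 56605 probes for 33012 gene names on the array. Of these, 18 probes of 8 genes were well above background on both arrays, and 18690 genes were so measured in all.

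There were 2 samples with 1 array each: KO-Linc1548 cells of the line 46C, and wild type (WT) cells of the same line. Both were taken on day 5 of a culture that leads to neural cells. 46C is a mouse embryonic stem cell line with a GFP reporter at the Sox1 locus, and KO-Linc1548 is that line labelled as a knockout of the long intergenic non-coding RNA Linc1548. Both were dissociated, allowed to aggregate in low-adhesion dishes and grown in medium with knockout serum replacement. The labels do not say how the knockout was made or from how many clones it came.

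BAF complexes use the energy of ATP to move or evict nucleosomes. In embryonic stem cells the complex is built around the ATPase BRG1 (Smarca4) and the core subunit BAF155 (Smarcc1). Neural progenitors also take up BRM (Smarca2) and BAF170 (Smarcc2), and at the exit from the cell cycle the actin-like subunit BAF53a (Actl6a) and the PHD finger subunits BAF45a (Phf10) and BAF45d (Dpf2) give way to BAF53b (Actl6b), BAF45b (Dpf1) and BAF45c (Dpf3). In mouse neural tissue miR-9-3p and miR-124 are known to bind the 3' end of Actl6a mRNA and lower BAF53a, and the repressor REST holds these miRNAs down in cells that are not neurons. The contrast here asks whether the RNAs of the earlier and later subunits differ between KO-Linc1548 and WT cells.

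The stretches of RNA that the array reads decide what can be said of these genes, so 4 probes on which the account below turns are shown 5′ to 3′ in lower case, with no part marked. Each has at least 1 reading frame with no stop codon. The first is the only probe of Actl6b (chr5:138007244-138007794, plus strand, mm9, an interval of 551 bases for a probe of 60 bases). The others are the brightest probe of Actl6a (chr3:32621551-32621610, plus strand), the most 5′ probe of Smarca2 (chr19:26795294-26795353, plus strand) and the middle probe of Smarca4 (chr9:21483531-21483590, plus strand).
Actl6b: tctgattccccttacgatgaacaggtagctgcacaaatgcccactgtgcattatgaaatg
Actl6a: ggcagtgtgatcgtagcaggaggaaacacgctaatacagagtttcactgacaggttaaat
Smarca2: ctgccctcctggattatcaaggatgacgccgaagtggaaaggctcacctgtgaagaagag
Smarca4: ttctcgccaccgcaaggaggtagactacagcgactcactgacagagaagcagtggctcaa

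Among the regulators, the sequence of miR-9-3p is shown, since the primary transcript of a copy of it is on the array (described below). A host transcript of miR-124 is on the array too, but the mature miR-124 sequence is not printed. The mature sequence of miR-9-3p in RefSeq (GRCm38.p6) is shown with the seed, bases 2 to 8, in capitals, at the Mir9-2 copy on chr13:83738858-83738879, plus strand.
miR-9-3p: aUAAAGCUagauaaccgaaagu

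Scanner signals below are scaled so that the 75th percentile of all non-control probes is 751 on both arrays, a difference is the log2 signal on the KO-Linc1548 array minus that on the WT array, and a gene's difference is the median over its measured probes. The ± after a difference is the scanner software's own error of the spots carried to the log2 scale. For bright probes it comes almost wholly from the software's fixed multiplicative error of 0.1, not from scatter seen between the spots. The ± covers error within an array, not the spread between cultures. With no replicates no test was run and no difference has a replicate check. In bulk RNA, fewer cells of a type and less RNA per cell cannot be told apart. The 75th percentile before scaling was 652 on the KO-Linc1548 array and 864 on the WT array, 58.5% of probes on the KO-Linc1548 array and 61.4% on the WT array were well above background, and 0 probes were saturated. No probe carries the name Linc1548 (0 probes), so the targeted RNA was not read under its name and the labels were not checked against it.

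None of the 8 measured subunits differed by 2-fold or more (0 higher and 0 lower), against 20.3% of all measured genes: 11.5% passed that limit upwards and 8.81% downwards on the KO-Linc1548 array. Below that limit the earlier and later subunits lay apart. The 5 stem cell and progenitor subunits had differences between −0.26 and 0.03, with a median of −0.13. The 3 measured subunits of later complexes, Smarcc2, Smarca2 and Dpf1, had differences between −0.88 and −0.64, with a median of −0.82. The 2 groups did not overlap in the main processing. With no filter on dim probes they did, since Dpf1 (−0.05) then lay above Smarca4 (−0.26) and Actl6a (−0.18). Read from the brightest or the most 3′ probe alone, the groups nearly met, with Dpf1 at −0.64 and Dpf2 at −0.61. The median over all measured genes was 0.10, and that over the 8 members was −0.22. With the arrays centred on the spike-in controls in place of the 75th percentile, every difference is lower by 0.46, and Smarcc2 (−1.34), Smarca2 (−1.28) and Dpf1 (−1.10) pass the limit, as do 17.9% of all genes in that direction.

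**Figure D1:**
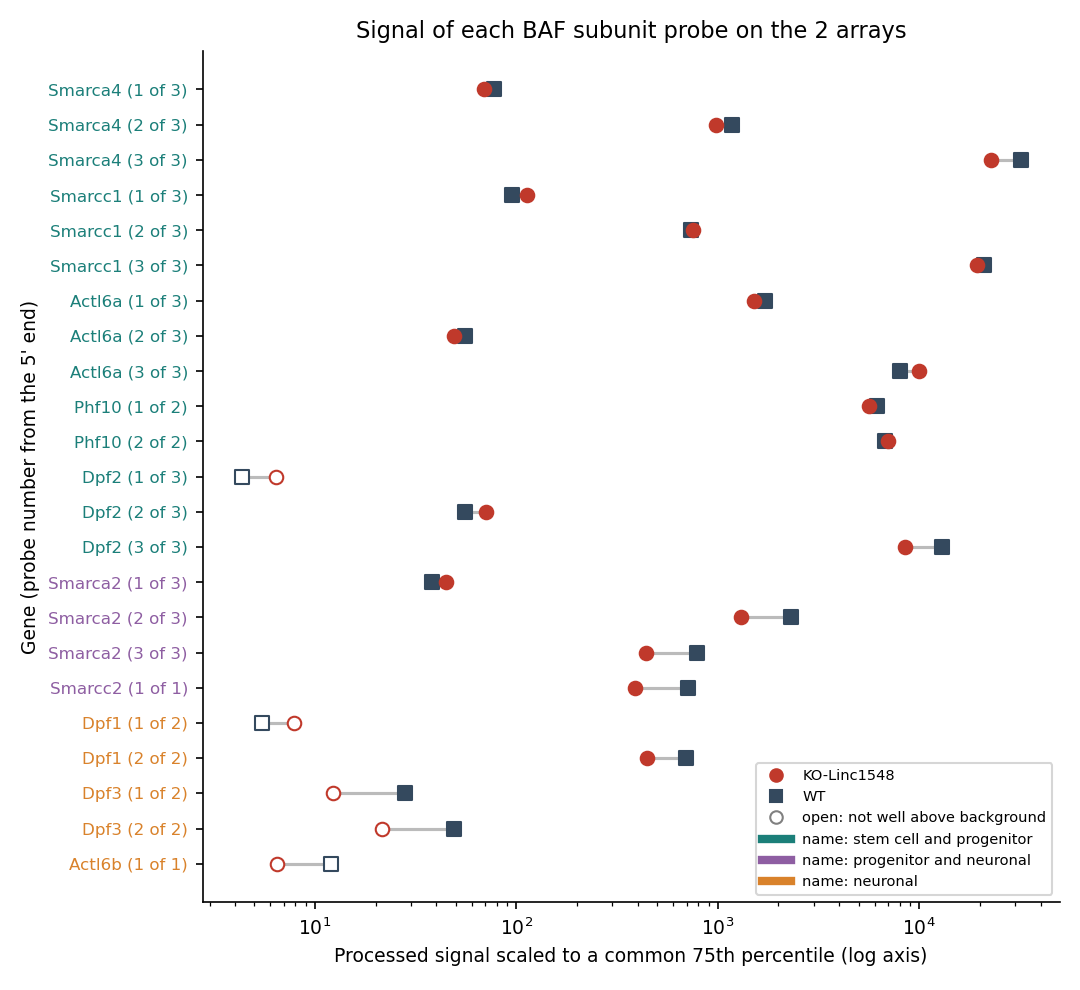
Scaled processed signal (log axis) of each of the 23 probes on the KO-Linc1548 array (circles) and the WT array (squares), with a line joining the 2 values of a probe; open symbols were not well above background. The Smarcc2 probe, the brighter Dpf1 probe and the 2 brighter Smarca2 probes lie lower on the KO-Linc1548 array, and every Actl6b and Dpf3 symbol on that array is open.

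Smarca2 encodes BRM, the ATPase that can stand in place of BRG1. Its probe at chr19:26852644-26852703 (mm9) read 1306 on the KO-Linc1548 array and 2308 on the WT array, a difference of −0.82 ± 0.20. A neighbouring probe at chr19:26852751-26852810 read 441 on the KO-Linc1548 array and 789 on the WT array, a difference of −0.84 ± 0.21. The 2 probes lie next to each other at the 3′ end and are not separate evidence of the whole transcript. Both are annotated to a different RefSeq transcript from the most 5′ probe, so their values need not stand for that probe's transcript. The most 5′ probe, printed above, read 44.8 on the KO-Linc1548 array and 38.0 on the WT array, a difference of 0.24 ± 0.33, so it was dim and within its error of 0. The gene's difference of −0.82 was 1.77-fold lower in KO-Linc1548 cells, and 11.6% of all measured genes were as low or lower.

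Smarca4 encodes BRG1, the ATPase present in stem cells, progenitors and neurons. From 5′ to 3′, its probe at chr9:21439194-21439253 read 69.1 on the KO-Linc1548 array and 77.3 on the WT array (−0.16 ± 0.26). The middle probe, printed above, read 979 on the KO-Linc1548 array and 1175 on the WT array (−0.26 ± 0.20). The 3′ probe at chr9:21507751-21507810 read 22578 on the KO-Linc1548 array and 31905 on the WT array (−0.50 ± 0.20). All 3 were lower on the KO-Linc1548 array, but the first by less than its error. At the gene level Smarca4 was 1.20-fold lower, at a place where 28.5% of genes were as low or lower.

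Smarcc2 encodes BAF170, a scaffold subunit that in the developing mouse cortex competes with BAF155 for places in the complex. It has a single probe, at chr10:127926315-127926374 (plus strand, mm9), which read 387 on the KO-Linc1548 array and 712 on the WT array. The difference of −0.88 ± 0.21 (1.84-fold lower) was the lowest of the 8 measured members, and 10.6% of genes were as low or lower. No second probe checks it.

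Smarcc1 encodes BAF155, the scaffold of the stem cell complex. Its probe at chr9:110086584-110086643 read 113 on the KO-Linc1548 array and 94.9 on the WT array (0.25 ± 0.23). The probe at chr9:110116027-110116086 read 750 on the KO-Linc1548 array and 734 on the WT array (0.03 ± 0.20). The 3′ and brightest probe at chr9:110141576-110141635 read 19308 on the KO-Linc1548 array and 20953 on the WT array (−0.12 ± 0.20). The brighter 2 probes were within their error of 0, and the gene's difference of 0.03 was the highest of the members, with 45.2% of all genes as low or lower. It changed sign with the brightest probe alone (−0.12) and with spike-in centring (−0.43).

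Actl6a encodes BAF53a, an actin-like protein needed by dividing progenitors and also part of the INO80 and TIP60-p400 complexes. Its probe annotated to the RefSeq transcript, printed above, read 9962 on the KO-Linc1548 array and 8001 on the WT array (0.32 ± 0.20). The other 2 probes are annotated to Ensembl transcripts. The one at chr3:32608543-32608602 read 1509 on the KO-Linc1548 array and 1714 on the WT array (−0.18 ± 0.20), and the one at chr3:32610710-32610769 read 48.9 on the KO-Linc1548 array and 55.3 on the WT array (−0.18 ± 0.31). The brightest probe was therefore higher on the KO-Linc1548 array, while the gene's median difference was −0.18, the value of its dimmest probe. The sign of the gene's difference holds only for some settings. That difference was 0.32 with the brightest or the most 3′ probe. It was 0.13 with another background correction (normexp) and 0.07 with a stricter filter on dim probes.

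Actl6b encodes BAF53b, the neuron-specific partner that in mice is needed for dendrite growth. Its probe read 6.52 on the KO-Linc1548 array and 12.1 on the WT array, and neither was well above background. Neither array measured it, so the exchange of BAF53a for BAF53b cannot be followed here and no fold is given.

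Dpf1 encodes BAF45b, a PHD finger subunit of the neuronal complex. Its probe at chr7:30101854-30101913 (plus strand, mm9) read 447 on the KO-Linc1548 array and 695 on the WT array. The difference of −0.64 ± 0.21 was 1.56-fold lower in KO-Linc1548 cells, and 15.3% of genes were as low or lower. The other probe, at chr7:30092461-30092520 and annotated to a predicted transcript, read 7.89 on the KO-Linc1548 array and 5.45 on the WT array, not well above background on either. With that probe counted, as when no filter is set on dim probes, the difference was −0.05.

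Dpf3 encodes BAF45c, which is found in neurons and in heart and skeletal muscle. It was well above background on the WT array alone. The probe at chr12:84314738-84314797 (minus strand, mm9) read 21.5 on the KO-Linc1548 array and 48.8 on the WT array, which makes it at least 1.60-fold lower in KO-Linc1548 cells when set against the lowest signal that passed there. The probe at chr12:84370514-84370573 read 12.4 on the KO-Linc1548 array and 27.9 on the WT array and gave no bound. Both probes were close to the lowest signals that the array reads. The software's error of the log2 difference was 0.55 for the first probe and 0.81 for the second, and the bound does not take it into account. The log2 bound of 0.68 ran between 0.09 with normexp and 1.14 with spike-in centring.

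Phf10 encodes BAF45a, which is tied to the dividing progenitor. Its probe at chr17:15082169-15083242 (minus strand, mm9; the interval of 1074 bases is longer than the probe) read 5641 on the KO-Linc1548 array and 6195 on the WT array (−0.14 ± 0.20). The other, at chr17:15082055-15082114, read 7006 on the KO-Linc1548 array and 6754 on the WT array (0.05 ± 0.20). Both were within their error of 0, and the gene's difference was −0.04.

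Dpf2 encodes BAF45d, a reader of acetylated histone H3 found in many tissues. Its probes disagreed. The brightest read 8514 on the KO-Linc1548 array and 12968 on the WT array (−0.61 ± 0.20). Another at chr19:5899939-5899998 (minus strand, mm9) read 70.8 on the KO-Linc1548 array and 55.5 on the WT array (0.35 ± 0.27). The third, at chr19:5911826-5911885, read 6.38 on the KO-Linc1548 array and 4.32 on the WT array, both not well above background. The median of the 2 measured probes, −0.13, stands for neither of them. Read from the brightest probe alone, Dpf2 (−0.61) would lie beside Dpf1 (−0.64).

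**Figure D2:**
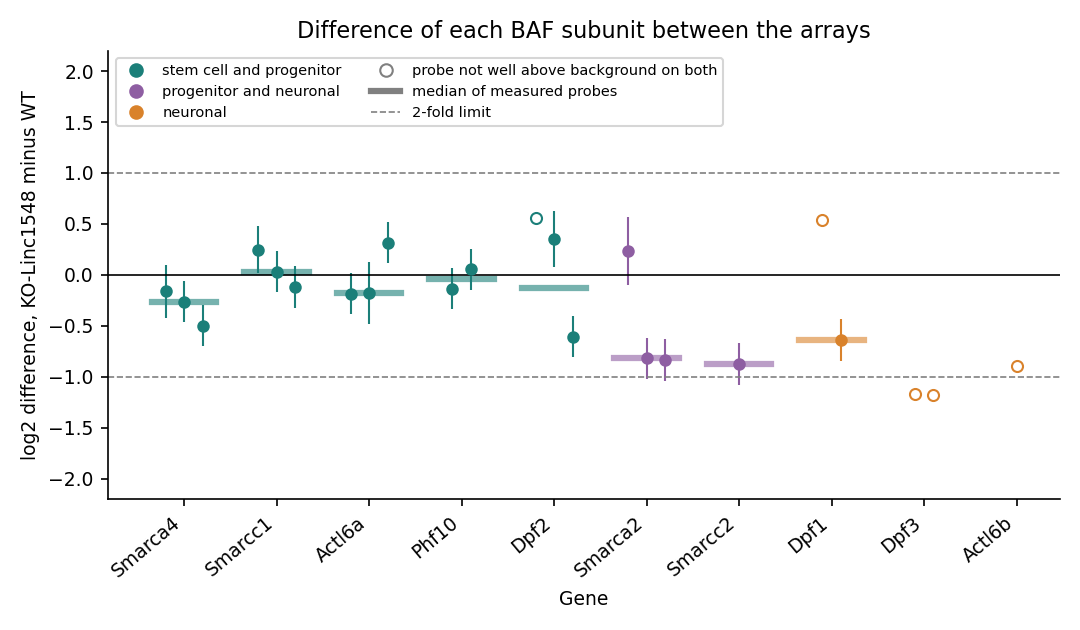
Log2 difference, KO-Linc1548 minus WT, of each probe (points, with the software's error) and the median over measured probes of each gene (bars); open points were not well above background on both arrays. The bars of Smarca2, Smarcc2 and Dpf1 lie between −0.88 and −0.64, and those of the 5 stem cell and progenitor subunits between −0.26 and 0.03.

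For the exchange, the RNA difference of a later subunit was set against that of the earlier one it replaces or joins. The arrays read RNA and do not show which subunits the protein complexes held. Each value compares how 2 genes differ between the arrays and is no comparison of their levels. Smarcc2 against Smarcc1 gave −0.91, the largest of the 4 pairs that could be read. Smarca2 against Smarca4 gave −0.56. Dpf1 gave −0.60 against Phf10 and −0.51 against Dpf2. The 2 Dpf1 values share that gene's single measured probe. All 4 were below 0, meaning that the later partner lay lower relative to the earlier one on the KO-Linc1548 array, and 0 of them passed the 2-fold limit. The pairs of Actl6b with Actl6a, and of Dpf3 with Phf10 and Dpf2, had no value.

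These contrasts do not move with the centring of the arrays, since a shift takes both genes along. Over the main processing and 11 others, the 12 values of each pair were all below 0, but these are not 12 separate checks. Spike-in centring, median centring and updated names left every pair at its main value. Smarcc2 and Dpf1 have 1 measured probe each, so averaging or choosing among measured probes could not move them. The Smarcc pair ran from −0.93 to −0.76. The ATPase pair ran from −0.57 to −0.17, the value nearest 0 with the mean over probes, which gives the dim 5′ probe of Smarca2 equal weight. Dpf1 against Phf10 came to −0.01 with no filter on dim probes, and Dpf1 against Dpf2 to −0.03 with the brightest probe, so both can vanish with the choice of probes.

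**Figure D3:**
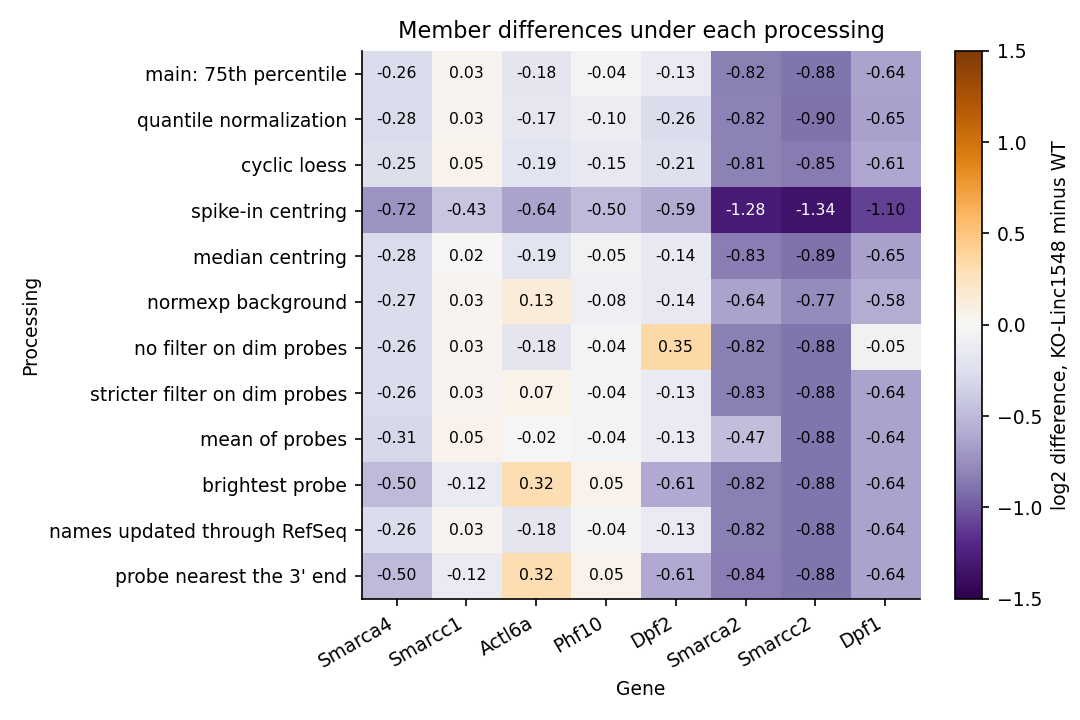
Log2 difference, KO-Linc1548 minus WT, of the 8 measured subunits (columns) under the main processing and each alternative (rows), with the value in each cell. Smarca2, Smarcc2 and Dpf1 are below 0 in every row, though Dpf1 comes to −0.05 with no filter on dim probes; Smarcc1, Actl6a, Phf10 and Dpf2 change sign in at least 1 row.

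Position along the transcript moves with these values. Over 6315 genes with measured probes at least 500 bases apart, the most 3′ probe had a lower difference than the most 5′ one by a median of −0.16 (quartiles −0.47 and 0.10), with 65.9% of genes below 0. Among the members this distance was −1.08 for Smarca2, −0.96 for Dpf2, −0.36 for Smarcc1 and −0.34 for Smarca4, against 0.19 for Phf10 and 0.50 for Actl6a. The 5′ probes of the first 4 genes were also dim. The part of probe position and of dim signal in the members' differences was not tested. Read at the most 3′ probe alone, Smarca2 (−0.84), Smarcc2 (−0.88) and Dpf1 (−0.64) were still the 3 lowest members. Next came Dpf2 (−0.61) and Smarca4 (−0.50), then Smarcc1 (−0.12), Phf10 (0.05) and Actl6a (0.32). The groups of earlier and later subunits still did not overlap, but Dpf1 lay below Dpf2 by no more than the difference of −0.03 given above.

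**Figure D4:**
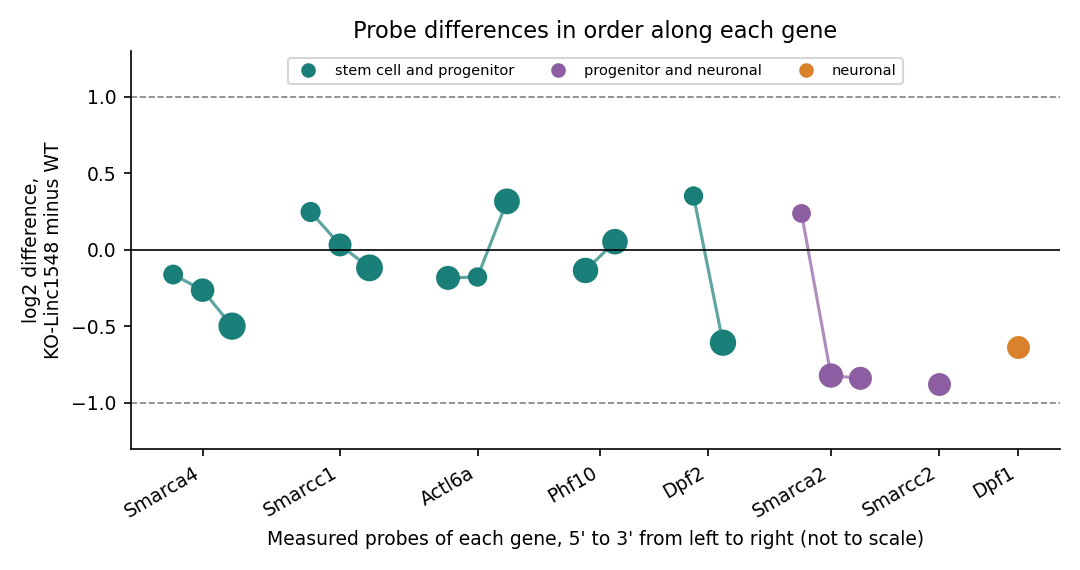
Log2 difference, KO-Linc1548 minus WT, of the measured probes of each member in order from 5′ to 3′; a larger point is a brighter probe on the WT array, and positions are not to scale. In Smarca2, Dpf2, Smarcc1 and Smarca4 the 3′ probe lies below the 5′ probe, and in Phf10 and Actl6a above it.

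The promoters of the neuronal PHD finger subunits Dpf1 and Dpf3, the first lower in KO-Linc1548 cells and the second with the bound given above, are shown as the part of those bases that lies before the gene's whole annotated extent in RefSeq (GRCm38.p6), with the CCAAT box (ATTGG or CCAAT) in capitals. That of Dpf1 is chr7:29303755-29303951 (plus strand, 197 bases) and that of Dpf3 is chr12:83487737-83487986 (minus strand, 250 bases).
Dpf1: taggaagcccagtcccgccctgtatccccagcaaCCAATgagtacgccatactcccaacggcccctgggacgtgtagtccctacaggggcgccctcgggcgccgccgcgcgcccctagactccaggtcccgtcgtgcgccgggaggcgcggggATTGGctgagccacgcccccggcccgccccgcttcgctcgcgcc
Dpf3: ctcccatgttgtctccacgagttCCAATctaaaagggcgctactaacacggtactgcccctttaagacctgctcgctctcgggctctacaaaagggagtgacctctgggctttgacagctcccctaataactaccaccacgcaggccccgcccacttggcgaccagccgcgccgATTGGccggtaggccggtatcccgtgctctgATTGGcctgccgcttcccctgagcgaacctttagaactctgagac

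On either strand, ATTGG occurred 2 times in the Dpf1 and 3 times in the Dpf3 promoter, 3 times in that of Actl6b and once in that of Dpf2. These were counted over the 250 bases before the start in the RefSeq promoter table. For Actl6b only 65 of those bases lie before the gene's whole annotated extent, and they hold 0 of its 3 matches. ATTGG was not found in the promoters of the other 6 members. It was present in 33.8% of 32851 promoters of 250 bases. The GC box GGGCGG was found in 32.7% of promoters and in those of 7 of the 10 members: Actl6a, Dpf1, Smarca4, Smarcc1, Dpf3, Phf10 and Smarca2. The letters CAGCACC, the left part of the REST element, were in 5.73% of promoters and in 0 members, and GGACAG, its right part, was in 18.7% and in those of Smarcc2 and Dpf2, 1 time each. A match is a description of these letters, and nothing about binding follows from it.

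The other 20 BAF subunits were all measured. In KO-Linc1548 cells 3 passed the 2-fold limit upwards and 2 downwards, and the list's median was −0.11. Over all measured genes 11.5% passed it upwards and 8.81% downwards, so these counts do not set the list apart. The same shares stand beside the counts of the lists that follow. Bcl11a, a zinc finger subunit of blood and brain, was 2.88-fold higher, with 3 measured probes between 1.35 and 1.54. Its relative Bcl11b was 2.59-fold higher on a single dim probe (101 on the KO-Linc1548 array, 38.8 on the WT array), and stood at 0.84 at its lowest over the 12 settings. Bicral, listed as Gltscr1l on the array and a subunit of the non-canonical complex, differed by 1.85, with probes at 1.08 and 2.63.

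The lowest of the list was Smarcd3, which encodes BAF60c, a subunit best known from heart and muscle and also found in neural progenitors and neurons. It was 3.28-fold lower in KO-Linc1548 cells (−1.71), with 3 probes between −1.76 and −1.18, and its brightest probe read 177 on the KO-Linc1548 array and 582 on the WT array. With normexp the difference was −0.70, under the limit. Bicra (Gltscr1 on the array) followed at −1.06, on a single measured probe. Ss18 and Ss18l1, named here after their values were seen, form a further pair that is exchanged in neurons. The single probe of Ss18l1, the neuronal member known as CREST, read 198 on the KO-Linc1548 array and 385 on the WT array (−0.96). Ss18 had a difference of 0.55 with probes at 0.33 and 0.77.

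Other complexes were listed because BAF53a is part of some of them. Of 26 INO80 and TIP60-p400 subunits, 1 passed the limit upwards (Ino80c, 1.28, on a single probe) and 0 downwards. The median was 0.14, with Epc1 lowest at −0.75. Of 20 remodelers of the ISWI, CHD and related families, 2 were higher (Chd5, 1.31, and Chd9, 1.06) and 1 lower (Chd3, −1.45, a subunit of the NuRD complex), with a median of 0.27.

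Of the 16 names listed as regulators of the switch, 15 were measured, and no probe carries the other name, Rncr3. Of those measured, 0 passed the limit upwards and 3 downwards, and the list's median was −0.31. C130071C03Rik, a non-coding transcript that spans Mir9-2 (chromosome 13, 83721381 to 83741308, GRCm38.p6), was 8.75-fold lower in KO-Linc1548 cells. Its brighter probe read 189 on the KO-Linc1548 array and 1493 on the WT array, and its 2 probes differed by −3.28 and −2.98. Mir124a-1hg, the host transcript of a miR-124 gene, has a single probe. It read 105 on the KO-Linc1548 array and 621 on the WT array and was 5.94-fold lower (−2.57). The array reads host transcripts and not the mature miRNA printed above. Beside these, Actl6a, the known target of both miRNAs, had the differences of −0.18 to 0.32 given above.

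The repressor Rest was the highest of the list at 0.96 (1.94-fold), just under the limit, with 3 probes between 0.89 and 1.21 and a range of 0.50 to 1.02 over the settings. Its brightest probe read 6205 on the KO-Linc1548 array and 3192 on the WT array. Ctdspl, a phosphatase that REST is known to use at its targets, was the third gene at least 2-fold lower (−1.12, probes −1.22 and −1.03). Ptbp2, the splicing factor that replaces Ptbp1 in young neurons, was named after its value was seen: it differed by −0.80 with 4 probes between −0.85 and −0.70, and Ptbp1 by −0.15 with probes at −0.48 and 0.17.

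**Figure D5:**
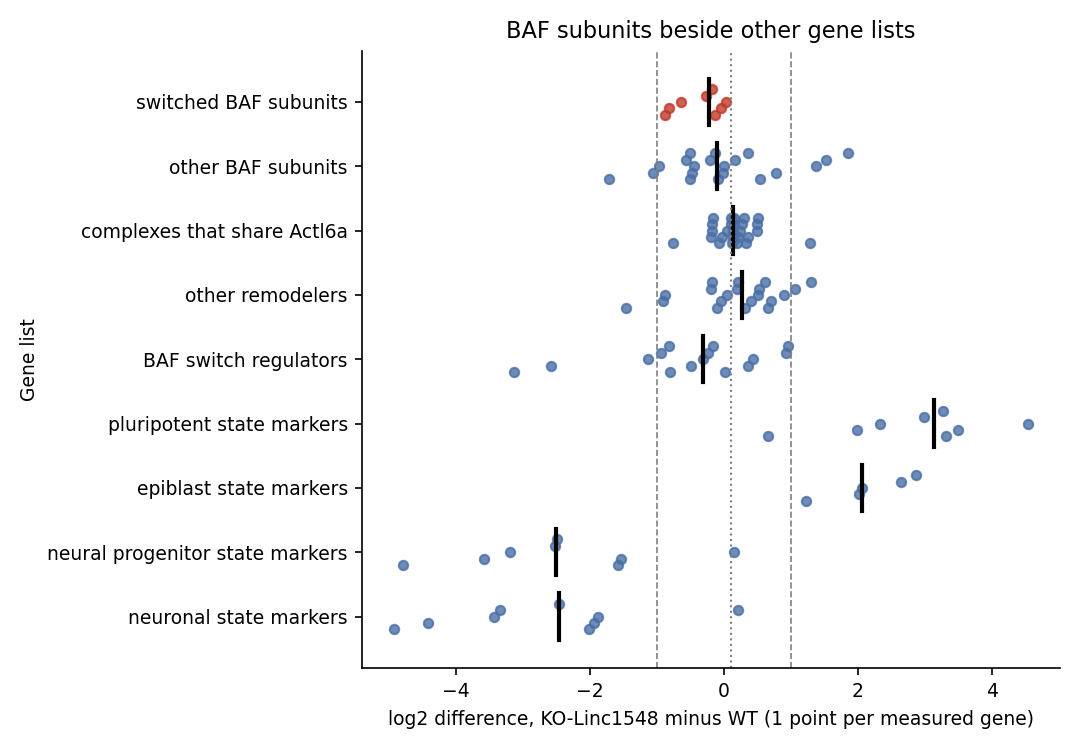
Log2 difference, KO-Linc1548 minus WT, of each measured gene (points) in the switched BAF subunits and 8 other lists, with each list's median (bar), the 2-fold limits (dashed) and the median of all measured genes (dotted). The switched subunits lie within the limits, while the state marker lists have medians between −2.50 and 3.13.

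Markers of cell state differed between the arrays beside the subunits, and most passed the 2-fold limit. Of 8 pluripotency markers, 7 passed it upwards on the KO-Linc1548 array, with a median of 3.13. Tdgf1, a Nodal co-receptor, was highest at 4.54, though its brightest probe gave 2.21. Nanog stayed under the limit at 0.66, and its probes disagreed (−1.63 and 2.95). All 5 epiblast markers passed the limit upwards, with a median of 2.07 (Nodal highest at 2.87). Of 8 neural progenitor markers, 7 passed the limit downwards and the median was −2.50 (Hes5, a Notch target, lowest at −4.78). The other, Sox2, stood at 0.15. Of 10 neuronal markers, 9 were measured, 8 passed the limit downwards and the median was −2.46. Isl1 was lowest at −4.92, on a single measured probe, and the other measured marker, Stmn2, stood at 0.21. Nanog, Sox2 and Stmn2 are named after their values were seen. The part of the state markers in the subunits' differences was not tested.

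Markers of other cell types were few and mostly dim. None of the measured oligodendrocyte (3 of 4 listed) or mesoderm (3 of 4) markers differed by 2-fold, with medians of −0.19 and −0.11. The oligodendrocyte marker left out of that count, Olig2, was well above background on the WT array alone, at least 3.03-fold lower in KO-Linc1548 cells. The mesoderm marker left out, Mixl1, was well above background on the KO-Linc1548 array alone, and no fold was computed for it. Neurog2, the neuronal marker not measured on both arrays, was at least 10.8-fold lower in KO-Linc1548 cells, and the trophoblast marker Elf5 was not well above background on either array; these 4 are named because they were not measured on both arrays, after their values were seen. Of the others, 1 of 3 astrocyte markers (Aldh1l1, 1.18), 2 of 5 primitive endoderm markers (Afp, 1.39, and Ttr, 1.29), 1 of 2 measured trophoblast markers (Cdx2, 2.21) and 1 of 3 fibroblast markers (Thy1, 2.17) were at least 2-fold higher and 0 lower. Their part was not tested either.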

How the data were processed

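Total RNA was hybridised as Cy3-labelled cRNA to 1-colour Agilent arrays, 1 per group, per the labels. Per the submitters' processing notes, Agilent Feature Extraction 10.7.1.1 made the deposited files. They hold spot intensity with background subtracted within each array and, per the file headers, no normalization between arrays. The arrays shared a slide and a scan; culture and array position cannot be told apart from the group. Probe positions in the files are on mm9; exon and UTR annotation of that build was not used here. The extraction protocol in the labels speaks of ground tissue, not of cultures.

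Control spots and outlier spots (155 on the KO-Linc1548 array, 173 on the WT array) were left out, and log2 processed intensity was centred on each array's 75th percentile. A probe was measured where a minimum share of 0.5 of its spots was well above background on both arrays (31536 of 56605 probes). Gene names are those of the array. For a gene measured on the WT array alone, the bound divides its WT signal by whichever was higher on the KO-Linc1548 array: its own signal or the dimmest one called well above background. The number of arrays limits the precision. Probes printed in several spots (298 probes) had a pooled SD of log2 signal of 0.0705 on the KO-Linc1548 array and 0.0646 on the WT array.

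Each group has a single array, so nothing was tested; a fixed limit of 2-fold (1 on the log2 scale) was used. Alternatives were quantile normalization, cyclic loess, spike-in centring (8 spike-in probes), median centring, normexp (offset 50, limma 3.58.1 in R 4.3.3), no or a stricter filter on dim probes, the mean or the brightest probe of a gene, names updated through RefSeq, and, chosen after seeing the data, the most 3′ probe. The steps were also run on simulated data of 18690 genes. All 200 of 200 given a log2 change of 1.5 were found, and 0 others were called. That change lies above the limit of 1, so the run checks the computation only. Changes under the limit, where all members lie in the main processing, were not simulated. With 1 array per group, the run cannot show how far a measured difference would hold in other cultures. No member probe shares 25 bases with a probe of another gene (0 probes). That check covers probes on the array, not repeats elsewhere in the genome. The members and the gene lists were chosen with earlier results of these data known. The text names all members, and of other lists the genes at least 2-fold different and the highest and lowest. Of the state markers, the largest of each state and the measured ones under the limit are named.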

Additional observations from a re-analysis of the deposited data

How the results depend on the processing

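No paired analysis was possible because there is 1 array per group, and for the same reason no array could be left out. Under the 11 alternatives, 34 values that answer a comparison moved and 4 passed the 2-fold limit. The other 385 kept their direction and side of the limit or moved little. Many of the 385 could not move, as where a gene has 1 measured probe or centring takes both genes of a pair along. Others shrank, as Dpf1 did from −0.64 to −0.05 with no filter on dim probes. The cause of the changes was not tested, other than that centring on spike-in controls lowers every difference by 0.46. With spike-in centring Smarca2 stood at −1.28, Smarcc2 at −1.34, Dpf1 at −1.10 and Smarcc1 at −0.43, the log2 bound of Dpf3 at 1.14, and 3 members were at least 2-fold lower; 4 other BAF subunits and 6 regulators were lower, as were 1 subunit of the complexes sharing Actl6a (0 higher, median −0.32) and 3 other remodelers (0 higher, median −0.19). With the brightest probe, and with the most 3′ probe (chosen after seeing the data), Smarcc1 stood at −0.12, Actl6a at 0.32 and Phf10 at 0.053; 1 other remodeler was higher in both, and 3 were lower with the brightest probe and 2 with the most 3′ probe, which also made 4 other BAF subunits and 1 pluripotency marker lower and turned Msi1 to 0.086. With normexp Actl6a stood at 0.13, 0 other BAF subunits were lower, 0 other remodelers were higher and the neuronal median was −1.94. The stricter filter gave 0.066 for Actl6a. Without a filter Dpf2 stood at 0.35, 1 member (Dpf3, not well above background on the KO-Linc1548 array) was lower and 1 other remodeler higher. The mean of probes left 1 regulator and 1 other remodeler higher, and quantile normalization 1 other remodeler higher and 2 lower. Over all genes, the share at least 2-fold lower ran from 5.61% to 17.9% and the median from −0.36 to 0.39. Actl6b and Dpf3 lie at the lower end of what these arrays read, and Smarcc2 and Dpf1 rest on 1 measured probe each.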
